A study of Mus musculus with 6 samples.

Results

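The 41 mouse genes whose symbol is Zbtb with a number were followed through maps of 5-hydroxymethylcytosine (5hmC) in blood cells that had or had not lost Tet2. They were taken by symbol from 21887 protein-coding genes of the RefSeq table of GRCm38, and each was measured over its span, which is the gene with 5 kb at both ends. Of the 41 spans, 29 (70.7%) held a called 5hmC peak in at least 1 library and 12 held none. Over all protein-coding genes, 77.1% held a peak. The family was chosen by symbol, but selected on results that already held these called lengths, so differences between the groups in called length are given as a description. One member, Zbtb8os, carries the name of its neighbour on the other strand and encodes a protein without zinc fingers. All spans were kept, and counts without Zbtb8os are given where it matters.

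5hmC is the base that TET enzymes make from 5-methylcytosine. The cells were bone marrow cells of C57BL/6 mice enriched for the receptor Kit, which carried Tet2fl/fl, an excisable Tet2, and CreER, a recombinase that works only in the presence of 4-hydroxytamoxifen (4-OHT). All cultures carried a retrovirus with GFP and AML1-ETO, a fusion of RUNX1 and RUNX1T1 that drives a form of human myeloid leukaemia. KO cells (labelled Tet2-/-) had been given 200 nM 4-OHT for 2 passages, over 4 days, and flox cells (labelled Tet2fl/fl) ethanol. Immature myeloid cells, sorted as positive for GFP and CD16/32 and negative for CD11b and Gr1, were profiled at passage 5 in 2 libraries per group, by immunoprecipitation of DNA with an antibody to 5hmC and sequencing. Only KO cultures met the drug and active Cre, so their effects cannot be told apart from those of Tet2 loss. The peak lists hold no expression, so the sorted identity could not be checked against markers.

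Per library, the authors' lists held 116539 and 122101 peaks in KO and 118727 and 118522 peaks in flox, covering 110.3 and 111.1 Mb in KO and 113.3 and 110.3 Mb in flox. The number of reads behind a list was unknown. A peak records that the caller passed its own threshold in that library, and fewer cells with the mark cannot be told apart from less of it per cell. Tet2 itself held 2 and 3 peaks in KO and 2 and 3 peaks in flox over its span. Which exons were excised is not stated, and these peaks are no check of the knockout. Nothing says whether the replicates were separate cultures, and the spread between libraries may be technical.

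Zbtb proteins pair a BTB domain, through which they form dimers and recruit corepressors such as BCOR or the ubiquitin ligase scaffold CUL3, with C2H2 zinc fingers that bind DNA. Many are repressors that set cell fate in blood, and some were first met in leukaemia or lymphoma. PLZF, the product of Zbtb16, is fused to the retinoic acid receptor in a rare form of human promyelocytic leukaemia. A few members (Zbtb33, Zbtb4 and Zbtb38) bind methylated DNA, the substrate of the TET enzymes.

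Promoter windows of the family held more CG dinucleotides than those of all genes, and peaks touched about the same share of both. RefSeq windows (GRCm38.p6, from 250 bases before to 50 after a start) matched 36 of the 41 genes, in 49 windows. The CG dinucleotide, which reads the same on both strands, occurred in 49 of 49 Zbtb windows and in 95.4% of the 21263 windows of all protein-coding genes, with a median of 25 per Zbtb window and 13 per window over all genes. A peak touched 7 of the 49 Zbtb windows (14.3%) in at least 1 library, against 14.0% of all windows, and 2 of the 49 (4.08%) in all 4 libraries, against 5.28% of all windows. These 2 belonged to Zbtb7b, the gene of the helper T cell factor ThPOK, and Zbtb45. Their 250 bases before the start are shown beside those of Zbtb17 and Zbtb1, whose windows no peak touched in any library, with CG in capitals.
Zbtb7b: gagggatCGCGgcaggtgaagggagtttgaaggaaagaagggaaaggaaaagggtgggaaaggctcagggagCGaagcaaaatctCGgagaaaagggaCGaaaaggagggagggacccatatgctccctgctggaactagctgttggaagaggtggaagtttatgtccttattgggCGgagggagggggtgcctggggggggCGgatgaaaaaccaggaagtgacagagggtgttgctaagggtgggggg
Zbtb45: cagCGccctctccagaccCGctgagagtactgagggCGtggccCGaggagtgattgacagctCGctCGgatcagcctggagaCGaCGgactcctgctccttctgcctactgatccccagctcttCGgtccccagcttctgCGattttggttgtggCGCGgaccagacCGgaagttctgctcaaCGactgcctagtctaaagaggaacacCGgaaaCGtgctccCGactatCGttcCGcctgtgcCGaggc
Zbtb17: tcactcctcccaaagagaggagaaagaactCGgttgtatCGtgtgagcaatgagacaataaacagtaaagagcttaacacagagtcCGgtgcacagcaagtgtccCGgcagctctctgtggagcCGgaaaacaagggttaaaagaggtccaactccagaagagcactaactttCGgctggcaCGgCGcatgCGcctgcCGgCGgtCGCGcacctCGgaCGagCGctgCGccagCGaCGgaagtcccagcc
Zbtb1: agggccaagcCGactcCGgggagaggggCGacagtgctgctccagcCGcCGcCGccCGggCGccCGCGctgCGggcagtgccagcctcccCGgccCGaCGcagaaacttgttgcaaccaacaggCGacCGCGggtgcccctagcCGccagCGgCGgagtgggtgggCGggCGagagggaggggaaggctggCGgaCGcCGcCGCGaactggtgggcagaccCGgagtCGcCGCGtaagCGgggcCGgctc
The Zbtb7b stretch (chr3:89393379-89393628, minus strand) holds 7 CG and lay wholly under a peak in both KO and both flox libraries. The Zbtb45 stretch (chr7:13009853-13010102, minus strand) holds 20 CG and was covered over 250 and 0 bases in KO and 250 and 250 bases in flox, since the KO replicate 2 peak covered only 6 bases of the window, all after the start. The Zbtb17 stretch (chr4:141444423-141444672, plus strand) holds 19 CG and the Zbtb1 stretch (chr12:76370270-76370519, plus strand) holds 33. The median CG count was 24 in the 7 touched windows of the family and 25 in the others.

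**Figure D1:**
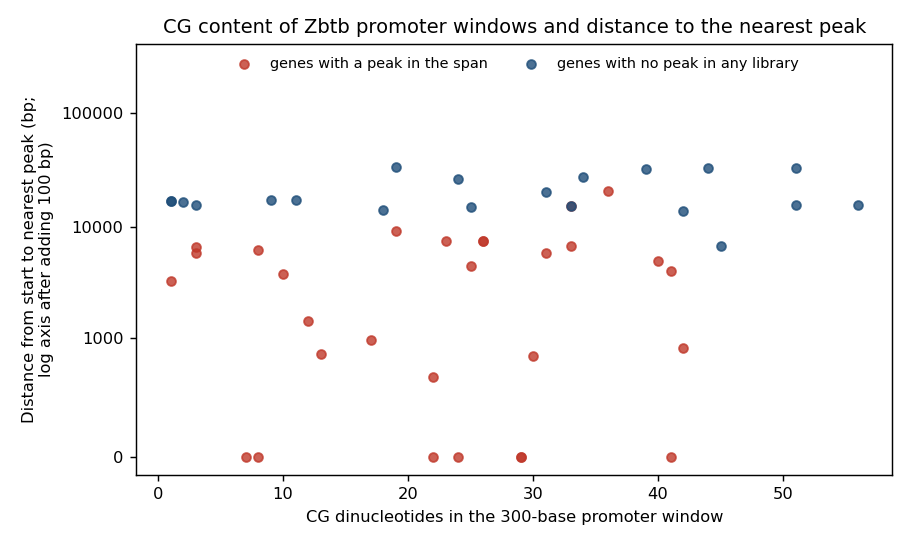
CG dinucleotides in each of the 49 Zbtb promoter windows (horizontal) against the distance in bp from the start to the nearest peak of any of the 4 libraries (vertical, log axis after adding 100 bp). The 7 touched windows lie at 0 bp with 7 to 41 CG, and the 20 windows of genes without a peak in their span lie 6871 to 33625 bp from a peak.

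The 12 spans without a peak in any library were those of Zbtb1, Zbtb3, Zbtb6, Zbtb11, Zbtb14, Zbtb18, Zbtb24, Zbtb25, Zbtb26, Zbtb33, Zbtb39 and Zbtb41. They include Zbtb1, which lymphocytes need to develop, Zbtb24, which is mutated in a human immunodeficiency with loss of DNA methylation at centromeres, Zbtb33, the gene of the methyl-CpG binder Kaiso, and Zbtb18, a repressor needed in the developing cortex. Zbtb1 and Zbtb25 lie side by side and have overlapping spans, as do Zbtb6 and Zbtb26, so the 12 are not separate observations. All 12 have a promoter window, with 11 to 56 CG in the richest window of each (median 36.5, against 25 in the 24 other genes with one). Their bodies are short to middling, with a median of 9710 bp and a range of 2365 to 37477 bp. Among all genes with a body in that range, 24.8% of 12668 had no peak in their span, and among Zbtb genes 36.4% of 33. The range came from the 12 genes themselves, so it drops only Zbtb genes with a peak. Over all body lengths the shares were 22.9% of 21887 genes and 29.3% of 41 Zbtb genes. A span listed without a peak may still hold 5hmC under the caller's threshold.

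Over the family, KO libraries had less called 5hmC than flox libraries, and the groups did not overlap. Summed over all Zbtb spans, with overlapping spans counted once, called length was 94.1 and 91.4 kb in the KO libraries, against 112.8 and 109.6 kb in the flox libraries. These are 92.8 ± 1.91 kb in KO and 111.2 ± 2.21 kb in flox (SD, n = 2 each), a ratio of KO to flox of 0.834, or 0.843 after scaling each library to the same total called length. Over all protein-coding spans the libraries had 52.1 and 52.0 Mb in KO and 54.9 and 53.4 Mb in flox, a ratio of 0.962 (0.971 scaled). The number of peaks in Zbtb spans was 91 and 96 in KO and 103 and 113 in flox. Zbtb16 alone held 21.2% of the family's called length, and without it the sums were 75.2 and 74.0 kb in KO and 87.5 and 84.6 kb in flox.

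Gene by gene, 20 of the 29 spans with a peak were lower in KO and 9 higher, taken as the difference of mean log2(bp + 500) after scaling. The median difference was -0.20 for these 29, beside -0.04 for the 16878 protein-coding genes with a peak, of which 54.5% were lower. In 9 of the 29 spans (31.0%) each KO library had less than each flox library, a pattern found in 18.7% of all genes with a peak. In 0 of the 29 each KO library had more than each flox library, beside 13.5% of all genes. Without Zbtb8os the first count was 8 of 28. The 9 genes were Zbtb8a, Zbtb8os, Zbtb12, Zbtb16, Zbtb17, Zbtb20, Zbtb44, Zbtb45 and Zbtb46. No gene passed limma's test of called length, with 0 of 14162 genes (0%) and 0 of the 26 Zbtb genes tested at an adjusted p under 0.05. At an unadjusted p under 0.05 limma had 869 genes (6.14%), among them 3 Zbtb genes, all lower in KO, namely Zbtb12, Zbtb16 and Zbtb17. The adjusted p of the 26 ran from 0.773 to 0.996.

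**Figure D2:**
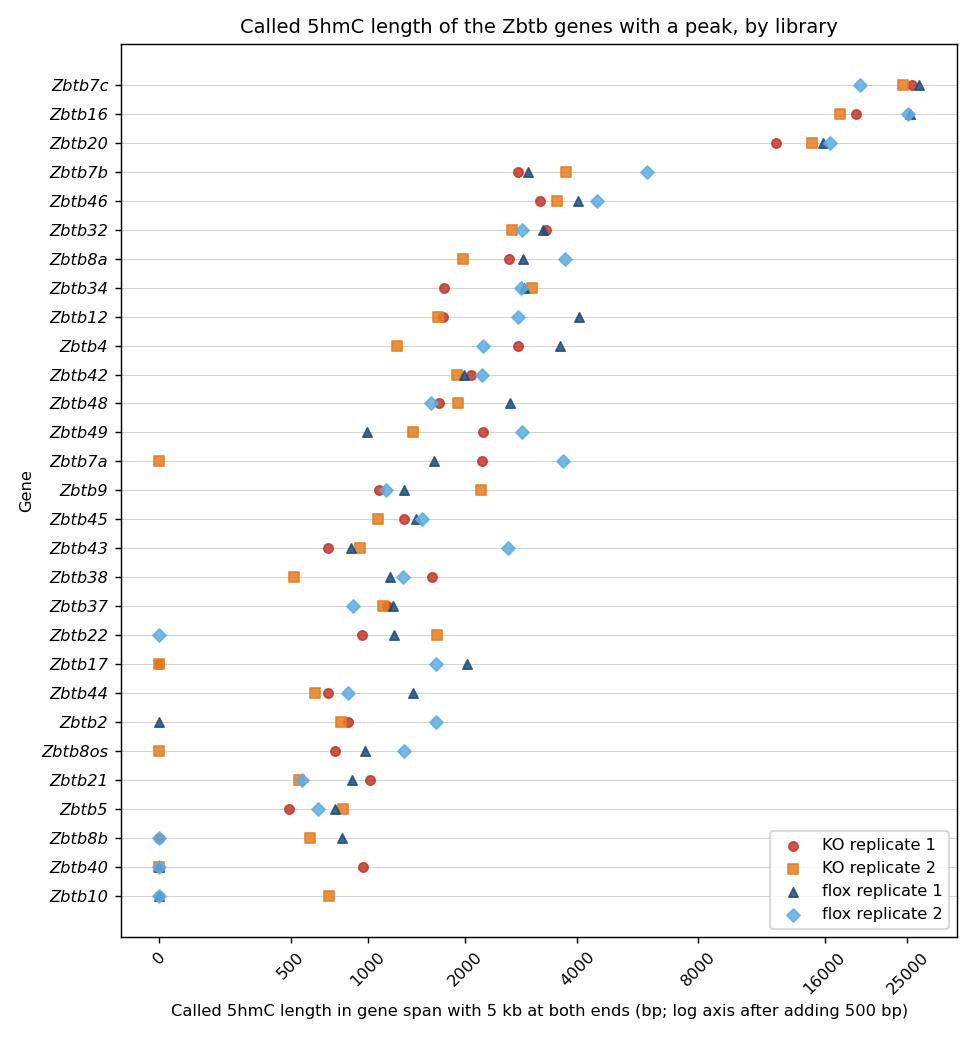
Called 5hmC length (bp, log axis after adding 500 bp) in the 29 Zbtb spans with a peak, 1 marker per library, with genes ordered by their mean. Zbtb7c, Zbtb16 and Zbtb20 stand apart at the top, and both KO markers of Zbtb17 lie at 0 while its flox markers lie at 2014 and 1637 bp.

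**Figure D3:**
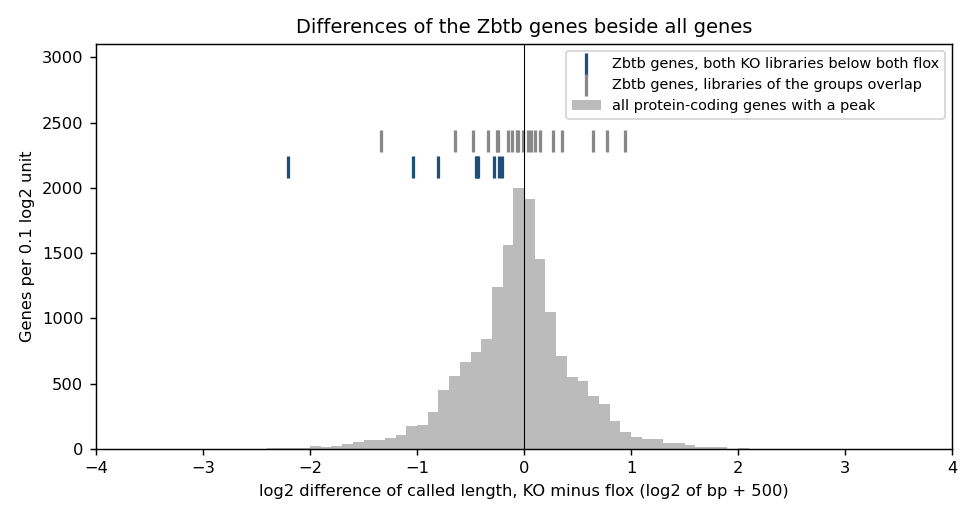
Distribution of the log2 difference of called length, KO minus flox, over the 16878 genes with a peak (grey bars), with the 29 Zbtb genes as ticks above. The lower row of ticks holds the 9 genes without overlap of KO and flox libraries, all left of 0.

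Among the members known from blood cells, 7 of 9 had a peak, beside 77.1% of all genes, and the log2 difference was below 0 in all 7, beside 54.5% of all genes with a peak. The 7 include Zbtb32 at -0.01 (SE 0.22). With scores under 100 left out, Zbtb7b (0.42) and Zbtb20 (0.016) lay above 0 and Zbtb17 had no peak. Zbtb16 (chromosome 9, 48651797 to 48836225) was among the 5 Zbtb genes with the most called length per kb of span, at 93.5 bp per kb in KO and 129.3 bp per kb in flox. It held 18930 and 17419 bp in KO, against 25273 and 25014 bp in flox. Both KO libraries lay well under both flox libraries (log2 difference -0.44, SE 0.10, limma adjusted p = 0.773), with 15 and 15 peaks in KO and 20 and 23 in flox. Its 30 regions, made by merging overlapping peaks of the 4 lists, show where the lengths part. In the 9 regions called in all 4 libraries the sums were 11.9 ± 0.02 kb in KO and 13.1 ± 1.19 kb in flox. The 2 regions called in both KO libraries and no flox library (KO-only) held a mean of 2.04 kb in KO, and the 2 with the reverse pattern (flox-only) a mean of 2.04 kb in flox. The remaining 17 regions, called in 1 to 3 libraries in other patterns, held 4.24 ± 0.88 kb in KO and 9.98 ± 0.97 kb in flox (SD, n = 2 each).

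The highest scored regions inside Zbtb16 were called in all 4 libraries. At 48779933 to 48781579 the authors' peak scores, 10 times the negative log10 of the caller's p-value, were 386 and 526 in KO and 595 and 345 in flox. At 48661229 to 48663043 they were 288 and 457 in KO and 322 and 321 in flox. Both pairs of scores overlap between the groups. Its KO-only regions lay at 48688046 to 48689273 (scores 73.4 and 58.1) and at 48744784 to 48746102 (54.4 and 52.9), near the lowest score of 50 that the lists hold. Its flox-only regions lay at 48774995 to 48775831, with scores of 68.2 and 54.1, and at 48822308 to 48823736, with scores of 92.1 and 126.5.

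Zbtb17 (chromosome 4, 141444673 to 141467937) encodes MIZ1, which binds MYC and with it represses cell cycle inhibitor genes. It had no peak in either KO library, and 2014 and 1637 bp in the flox libraries, in 2 peaks each. It is the single Zbtb gene with peaks in both flox libraries and none in KO. Its regions were both flox-only and lay inside the gene, 8.1 and 10.7 kb from the start. The first (141452270 to 141453287) had scores of 92.0 and 51.0 in flox replicates 1 and 2, and the second (141454786 to 141456023) 81.1 and 88.6. No peak of Zbtb17 reached a score of 100, so the gene drops out when weaker peaks are left out.

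Zbtb7a (chromosome 10, 81135225 to 81152222), the gene of LRF, which steers lymphoid and erythroid fate, had 2224 and 0 bp in KO and 1616 and 3670 bp in flox. The groups overlap, and the difference of -1.34 (SE 0.85) rests on KO replicate 2, which held no peak there, and stood at -0.11 without it. The 4 regions of the gene were each called in 1 to 3 libraries, and none in both flox libraries alone. Zbtb7b (chromosome 3, 89377644 to 89393673) had 2794 and 3739 bp in KO and 2969 and 5986 bp in flox, which overlap, and its difference of -0.33 turned to 0.14 without flox replicate 2. The region over its upstream start (89392794 to 89394345) was called in all 4 libraries, with scores of 250 and 334 in KO and 419 and 260 in flox.

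Zbtb46 (chromosome 2, 181371009 to 181493262), a marker of conventional dendritic cells, had 3197 and 3552 bp in KO and 4004 and 4489 bp in flox (log2 difference -0.28, SE 0.20). All KO values lay below the flox values, and 3 of its 5 regions were called in all 4 libraries. Zbtb20 (chromosome 16, 42875689 to 43634392), a factor of plasma cells and hippocampal neurons, is the longest gene of the family. It had 12274 and 14956 bp in KO and 15879 and 16491 bp in flox (-0.23, SE 0.14), which do not overlap. The difference was 0.016 with weaker peaks (scores under 100) left out. It was -0.10 without KO replicate 1 and -0.37 without KO replicate 2. Its 6 regions called in all 4 libraries held 7.07 ± 0.07 kb in KO and 7.00 ± 0.06 kb in flox, and the other patterns 6.54 ± 1.97 kb in KO and 8.38 ± 0.39 kb in flox. Zbtb32 (chromosome 7, 30589680 to 30602819), which restrains lymphocyte responses, had 3324 and 2687 bp in KO and 3253 and 2864 bp in flox. These values interleave (-0.01, SE 0.22), and its stronger region (30584694 to 30587015) lies in the neighbouring gene Kmt2b. Its only other region (30602787 to 30603950) reaches into the neighbour Upk1a and overlaps just the end of Zbtb32.

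**Figure D4:**
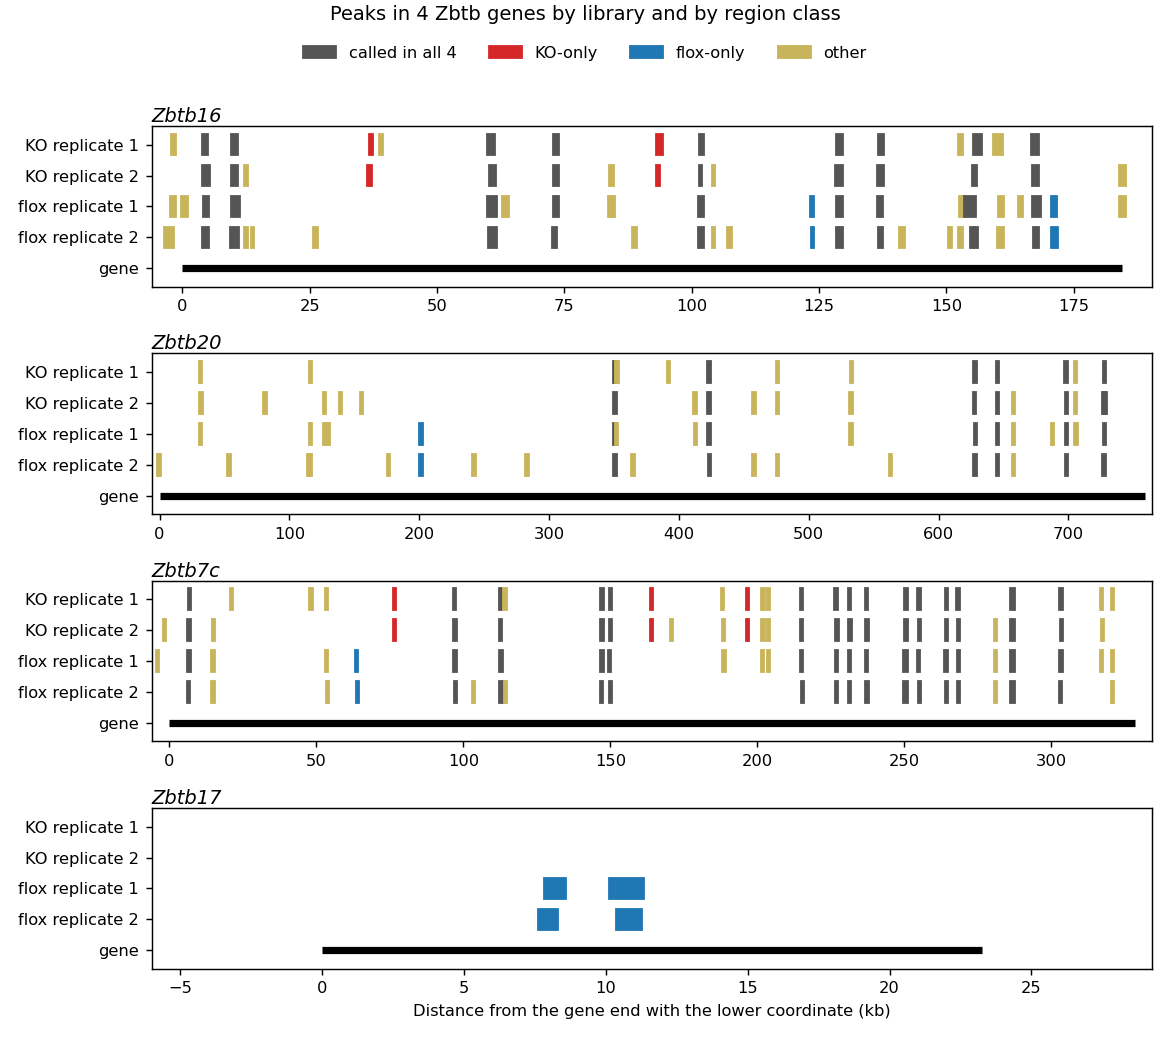
Peaks of each library along Zbtb16, Zbtb20, Zbtb7c and Zbtb17, by distance in kb from the gene end with the lower coordinate, coloured by the pattern of the merged region, with short peaks drawn wider than they are. Regions called in all 4 libraries form columns through all 4 rows, 9 in Zbtb16, 6 in Zbtb20 and 15 in Zbtb7c, and Zbtb17 has peaks in the flox rows alone.

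Of the methyl-CpG binders, Zbtb33 had no peak, and both others were lower in KO with overlapping groups. Zbtb4 (chromosome 11, 69765912 to 69784026) had 2790 and 1243 bp in KO and 3603 and 2246 bp in flox. Its difference of -0.47 (SE 0.39) rests on KO replicate 2 and was -0.01 without it. It held 1 flox-only region (69775431 to 69776710, scores 78.1 and 106.1), and part of its length came from a peak in the neighbouring gene Slc35g3. Zbtb38 (chromosome 9, 96682767 to 96731675) had 1600 and 513 bp in KO and 1182 and 1299 bp in flox, with the flox values between the KO values. Its difference of -0.24 (SE 0.43) turned to 0.29 without KO replicate 2, to 0.29 with scores under 100 left out and to 0.37 by number of peaks.

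Of 4 members with roles in the nervous system, muscle or metabolism, 3 (75%) had a peak, beside 77.1% of all genes. In KO 2 of the 3 were lower and 1 was higher. Zbtb7c (chromosome 18, 75820178 to 76148564), which has been tied to lipid metabolism, had the most called length of the family, with 25604 and 24343 bp in KO and 26650 and 19411 bp in flox. The KO values lie between the flox values (log2 difference 0.15, SE 0.15), and the sign turned to -0.06 without flox replicate 2. It held 3 KO-only regions and 1 flox-only region, with scores of 59.4 to 110.1. One region called in all 4 libraries (76105973 to 76107774) had the highest scores of any Zbtb span, 1021 and 1065 in KO and 1072 and 895 in flox. Zbtb42 (chromosome 12, 112678648 to 112682747), a factor of muscle, had 2074 and 1897 bp in KO and 1984 and 2234 bp in flox. All of this came from a single region beyond the gene (112683858 to 112686129), called in all 4 libraries with scores of 503 and 784 in KO and 586 and 458 in flox. Zbtb45 (chromosome 7, 13005666 to 13010047), tied to the maturing of glial cells, had 1312 and 1076 bp in KO and 1433 and 1488 bp in flox, also from a single region. Both KO values lay below the flox values, by less than the standard error (-0.20, SE 0.28).

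All 3 members tied to chromosome ends or genome stability had a peak, beside 77.1% of all genes, though Zbtb10 and Zbtb40 in 1 library each. Zbtb48, the gene of the telomere binder TZAP, had 1681 and 1901 bp in KO and 2655 and 1587 bp in flox, in 2 regions that were called in all 4 libraries and reach into the neighbouring genes Klhl21 and Tas1r1. Zbtb10 had 718 bp in KO replicate 2 and no peak in the other 3 libraries, and Zbtb40 had 958 bp in KO replicate 1 alone.

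The 22 other members include 14 with a peak (63.6%, beside 77.1% of all genes), of which 8 were lower and 6 higher in KO. Zbtb12 (chromosome 17, 34894559 to 34896867) was the densest Zbtb span, at 138 bp per kb in KO and 277 bp per kb in flox, and stood above 98.0% of all genes in mean called length per kb. It had 1725 and 1661 bp in KO, against 4035 and 2795 bp in flox. The KO and flox libraries did not overlap (log2 difference -0.81, SE 0.25, limma adjusted p = 0.773). Most of this came from 1 region over the gene (34894542 to 34897682) that was called in all 4 libraries and was narrower and lower scored in KO, at 1725 and 1661 bp with scores of 179 and 110 in KO, against 3141 and 2795 bp with scores of 524 and 441 in flox. The span reaches into Ehmt2, a histone methyltransferase gene, where 1 weak peak of flox replicate 1 lay.

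Zbtb8a and Zbtb8os are neighbours on chromosome 4, and their spans share 1 region. Zbtb8a (129353632 to 129378028) had 2650 and 1968 bp in KO and 2891 and 3712 bp in flox (-0.43, SE 0.26, and -0.68 over the gene body alone). Zbtb8os (129335532 to 129349871), whose product archease serves tRNA ligation, had 762 and 0 bp in KO and 978 and 1311 bp in flox (-1.03, SE 0.62, and -0.36 without KO replicate 2). In both genes all KO values lay below the flox values, and each held 1 flox-only region, with scores of 52.6 and 71.1 in Zbtb8a and 50.7 and 74.2 in Zbtb8os. Zbtb44 had 714 and 637 bp in KO and 1400 and 852 bp in flox, without overlap. Zbtb43 had 713 and 934 bp in KO and 869 and 2631 bp in flox, which overlap, and its difference of -0.64 was -0.03 without flox replicate 2.

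The members with a log2 difference above 0 all had overlapping groups. Zbtb22 (chromosome 17, 33916176 to 33919325) had 955 and 1649 bp in KO and 1216 and 0 bp in flox (log2 difference 0.95, SE 0.67, and 0.07 without flox replicate 2). Its KO-only region (33912457 to 33913414, scores 93.0 and 54.8) lies in Daxx, a neighbouring gene, and over the body of Zbtb22 alone the difference was -0.20. Zbtb37 had 1158 and 1118 bp in KO and 1207 and 887 bp in flox, from a region in Serpinc1. Zbtb49 had 2241 and 1401 bp in KO and 992 and 2870 bp in flox, where the flox libraries enclose the KO libraries and the log2 difference was 0.03. The remaining 6 of the 14 less studied members with a peak also had overlapping groups. Zbtb2, Zbtb9 and Zbtb21 had differences above 0, and Zbtb5, Zbtb8b and Zbtb34 below 0.

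Merging the 4 lists gave 158 regions that touched a Zbtb span. Of these, 53 (33.5%) were called in all 4 libraries, beside 40.5% of the 81689 regions in all gene spans. KO-only regions numbered 6 (3.80%), beside 2.74% in all gene spans, and flox-only regions 9 (5.70%), beside 3.21% in all gene spans. Pairs of 1 KO and 1 flox library had 2, 5, 6 and 5 regions called in that pair alone. The KO-only count equals the highest of these mixed pairs, and the flox-only count lies above them. The 6 KO-only regions lay in Zbtb7c, Zbtb16 and Zbtb22, and the 9 flox-only regions in Zbtb4, Zbtb7c, Zbtb8a, Zbtb8os, Zbtb16, Zbtb17 and Zbtb20. Most regions of every class lay in the gene bodies, where 137 of the 158 lay without overlapping another gene. Among these were 5 of the 6 KO-only regions, 9 of the 9 flox-only regions and 43 of the 53 called in all 4 libraries. Median scores were 64.1 for KO-only peaks and 76.2 for flox-only peaks, near the 69.8 of peaks in regions of other patterns, and 133 for peaks of regions called in all 4 libraries. Regions called in a single library numbered 47 (29.7%), beside 27.2% in all gene spans, with 6 and 7 in KO and 11 and 23 in flox. Flox replicate 2 thus had the most peaks of its own, and its part in these differences was not tested beyond the values without it given here.

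The classes are defined by which libraries had a call, so lengths by class describe where the called length lay and are no comparison of their own. In the 53 regions called in all 4 libraries, called length was 61.4 and 59.8 kb in KO, against 68.2 and 61.1 kb in flox, and KO replicate 1 lay above flox replicate 2. In the 90 regions of other patterns it was 28.9 and 28.3 kb in KO, against 37.5 and 42.7 kb in flox, without overlap. The 6 KO-only regions held 5.33 and 4.81 kb in KO, and the 9 flox-only regions 8.80 and 7.15 kb in flox.

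**Figure D5:**
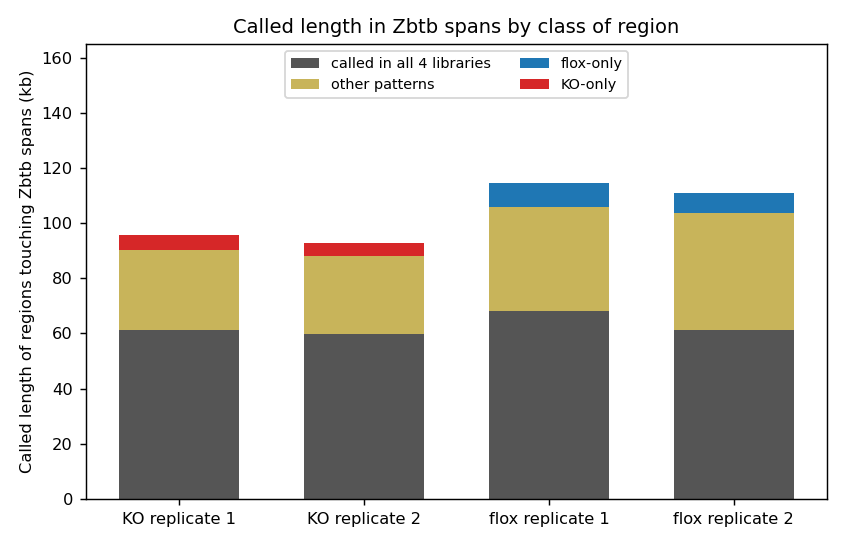
Called length in kb of the 158 regions that touch a Zbtb span, per library, stacked by the class of the region. The grey part, from regions called in all 4 libraries, is 59.8 to 68.2 kb high in every library, and the part from other patterns is 28.9 and 28.3 kb in the KO bars and 37.5 and 42.7 kb in the flox bars.

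Genes of the same protein family under other names, and genes of proteins listed here as partners of the family, give the wider setting. Of 8 other BTB zinc finger genes, 7 had a peak (87.5%, beside 77.1% of all genes). Of these, 4 were lower and 3 higher in KO, with a median difference of -0.02. In 3 of the 7 (42.9%) each KO library had less than each flox library, and in 1 (14.3%) each had more, beside 18.7% and 13.5% of all genes with a peak. Patz1, a regulator of thymocytes (chromosome 11), had no peak in KO and 1582 and 969 bp in flox, with 1 flox-only region. Gzf1 (chromosome 2) had 505 and 804 bp in KO and 1826 and 1600 bp in flox, with 1 flox-only region. Mynn (chromosome 3) was the reverse of Patz1, with 854 and 891 bp in KO and no peak in flox. Bcl6, the germinal centre repressor, had 2997 and 3689 bp in KO and 3233 and 3585 bp in flox, which interleave, with 1 KO-only region.

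Of 16 partner genes, 15 had a peak (93.8%, beside 77.1% of all genes). Of these, 8 were lower and 7 higher in KO, with a median difference of -0.10. In 5 of the 15 (33.3%) each KO library had less than each flox library after scaling, beside 18.7% of all genes with a peak. In 3 (20.0%) each had more, beside 13.5% of all genes with a peak. The class IIa histone deacetylase genes Hdac4 and Hdac7 held 2 flox-only regions each, with differences of -0.58 and -0.55, and Hdac1 held 1. Hdac4 had 4761 and 2978 bp in KO and 5807 and 6117 bp in flox, and Hdac7 5009 and 5387 bp in KO and 8473 and 7390 bp in flox, both without overlap. Hdac1 had 2128 and 3257 bp in KO and 3544 and 3233 bp in flox, which overlap as deposited and separate only after scaling. Bcor, a corepressor gene named after its values were seen, went the other way, with 1859 and 2589 bp in KO and 638 and 0 bp in flox (log2 difference 1.85, SE 0.48, limma adjusted p = 0.773). No gene of the 2 lists passed limma's test (0 of 19 tested, smallest adjusted p = 0.773). At an unadjusted p under 0.05 limma had 5, beside 869 of 14162 genes (6.14%). They were 2 of the 5 other BTB zinc finger genes tested, 2 lower in KO, and 3 of the 14 partner genes tested, 2 lower. The 34 Sox and Pou genes, another set of transcription factors, had a median difference of -0.04. Without overlap, 5 of 30 (16.7%) lay below and 4 of 30 (13.3%) above, beside the same 18.7% and 13.5% of all genes with a peak. None of these differences between sets was tested.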

How the data were processed

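The deposited files were lists of peaks of 4 libraries (2 KO, 2 flox), 1 list per library. The IgG control and the input of the series were not used here. Per the submitters' processing notes, the tools were MACS 1.4, Bowtie and CASAVA 1.8 and the build GRCm38 (mm10), with no roles given. Caller settings and its control library are not stated. Each deposited score is 10 times the negative log10 of a p-value that the authors' caller gave. Read depth is unknown, so no counting interval is given.

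Called length is the number of bases under peaks in a gene with 5 kb at both ends. Each library was scaled to the same total, and log2(bp + 500) was tested with limma 3.58.1 in R 4.3.3, with trend and robust set, where a gene's mean reached 500 bp, adjusted by Benjamini-Hochberg over all genes. The fit was tested on simulated data. Regions are overlapping peaks (1 bp or more) merged over the 4 lists. Coordinates are on GRCm38, counted from 1. Zinc fingers per protein, a planned measure, were not analysed here. Python 3.11.15, numpy 2.4.6, pandas 2.3.3, scipy 1.17.1 and matplotlib 3.10.9 were used.

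The members, lists and tests were chosen with earlier results of these data known. Named genes were the members known from blood cells, the methyl-CpG binders, members with a flox-only or KO-only region, the 5 lowest and 5 highest differences at a mean of at least 1000 bp, the 5 densest spans, and spans without a peak. Other members were named after their values were seen. In the 2 wider lists, genes with a flox-only or KO-only region were named. A few results that these rules would name are not reported here. Alternatives were a score of at least 100, other intervals, scaling, pseudocounts and filters, peak numbers, an overlap of 50%, leaving out each library and a replicate block.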

Additional observations from a re-analysis of the deposited data

How the results depend on the processing

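Limits come first from the peak lists, which hold no reads, so depth is unknown. The number of genes past limma's threshold stayed at 0 in the alternatives except by number of peaks, where it was 700 with 1 Zbtb gene (Zbtb17), and without a filter, where it was 26 with no Zbtb gene. All 700 had equal peak numbers within both groups, which leaves no spread between replicates. With the replicate number as a block (replicate block) limma had 0 genes. The deviations of same-numbered libraries from their group means correlated at 0.00649 over 14162 genes, so they did not vary together from gene to gene. A shift common to all genes would not show in this value, since the libraries were scaled and a correlation leaves out the mean. Whether same-numbered libraries shared a culture is not stated, and this correlation cannot tell.

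The median difference of the Zbtb genes, -0.20, was -0.082 with a score of at least 100, 0 by number of peaks and -0.10 with a pseudocount of 2000 bp, and ran from -0.24 to -0.16 with each library left out. The summed length, -0.25 as log2 of KO over flox, was -0.29 over gene bodies and -0.28 with 2 kb flanks, and -0.27 to -0.22 with each library left out. The 9 genes with KO below flox numbered 6 with a score of at least 100 and 10 over gene bodies or with 2 kb flanks. They numbered 2 by number of peaks and 14 to 15 with a library left out. The 0 genes with KO above flox became 2 with a score of at least 100, 1 with 2 kb flanks, 1 by number of peaks and 2 to 5 with a library left out, where fewer libraries make separation easier. The 6 KO-only regions numbered 2 with a score of at least 100 and 10 to 14 with a library left out, and the 9 flox-only regions 3 and 15 to 32. Zbtb20 turned to 0.016 with a score of at least 100, and the cause was not tested. In that setting, besides Zbtb20, 9 of the 16 named genes with a value moved by more than their spread. Zbtb7b, Zbtb38 and Zbtb43 moved to above 0 and Zbtb9 to below 0. Zbtb4 (-1.62), Zbtb8a (-1.10), Zbtb16 (-0.56), Zbtb32 (-0.51) and Zbtb46 (-1.29) moved farther below 0, and Zbtb17, Zbtb22 and Zbtb8os had no peak left.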
